A study of Mus musculus with 30 samples.

Results

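Haematopoietic stem cells of old B6 mice joined to a young partner were set against those of old B6 mice joined to an old partner, with 9 of the 30 samples of a mouse parabiosis RNA sequencing series. In parabiosis the circulations of a pair of mice are joined by surgery. The old heterochronic group, OHETB6, holds 4 libraries from old mice with a partner of the other age, and the old isochronic group, OISOB6, holds 5 libraries from old mice with a partner of like age. All 9 came from male mice that were 22 months old when joined, and every mouse of both groups had been joined, so surgery and a shared circulation were common to them. Members were chosen by the library code that each sample title carries. Stem cells were sorted from bone marrow by flow cytometry. The labels name neither the surface markers of the sort nor the partner of each mouse, and they do not say whether cells of the partner were kept out of the sort. The isochronic libraries may include both mice of a pair. Nothing in the labels ties a library to a separate animal beyond its being a separate sample, so p-values measure the spread between these libraries.

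Haematopoietic stem cells are the rare marrow cells that renew themselves and give rise to all blood lineages. With age they become more numerous, favour platelet and myeloid output over lymphoid output, and cycle and engraft differently from young cells. Joining an old animal to a young one exposes old cells to young blood and its soluble factors, and the comparison asks which transcripts of old stem cells differ with the age of the partner. In this series heterochronic cells are B6 when old and of another strain, BoyJ, when young. The strain of each partner is not in the labels, so the age and strain of the partner may be confounded.

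For 2 of the 4 OHETB6 and 2 of the 5 OISOB6 libraries, a sample's title points to another column of the count table than its description does. Over the series this holds for 10 of the 29 columns, among them both OHETB6X libraries, replicates 1 and 2 of YBJCNT, replicate 2 of YB6CNT and replicate 1 of YISOBJ, groups described where they are used. The title code was followed. Across 11806 genes a simple log ratio of the groups had a Pearson r of -0.758 with the test score in the authors' deposited table under title matching and -0.267 under description matching, negative because that table runs isochronic over heterochronic. OHETB6 replicate 4 stood apart: its median r with the other 8 libraries, on log2(CPM + 1), was 0.929, against 0.943 to 0.964 for each of the others. Results are given with and without it. The 9 libraries held 12269259 to 28894583 estimated counts. Levels are CPM, counts scaled to a common library size with TMM factors, and differences are log2 fold changes, OHETB6 minus OISOB6.

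Ext2 (ENSMUSG00000027198, GRCm38 chromosome 2 at 93661028 to 93822568, minus strand) was lower in old stem cells with a young partner. Its product forms, with that of Ext1, the polymerase that lengthens heparan sulfate chains, the sulfated sugars of the cell surface and matrix that bind growth factors and chemokines. Ext2 stood at 31.0, 52.3, 47.5 and 40.7 CPM in OHETB6 replicates 1 to 4, and at 143, 217, 241, 144 and 99.9 CPM in OISOB6 replicates 1 to 5. Every heterochronic library lay below every isochronic library. The means were 42.9 ± 9.21 CPM (SD, n = 4) and 169 ± 58.3 CPM (SD, n = 5). The log2 fold change was -1.98 (SE 0.25; adjusted p = 0.0312, edgeR quasi-likelihood test). Ext2 was the only one of 14033 genes tested that passed an adjusted p of 0.05 (0.00713% of genes lower, 0% higher), while 763 genes had an unadjusted p under 0.05 and 702 would by chance.

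The size of the Ext2 difference held in most settings, but its call did not. Its adjusted p was 3.11e-10 with DESeq2, 0.995 with limma-voom, and 0.556 with edgeR when all B6 libraries shared 1 fit. Without OHETB6 replicate 4 the log2 fold change was -1.96 and the edgeR adjusted p was 0.177. Leaving out any library other than OISOB6 replicate 5 took the adjusted p above 0.05, up to 0.266 without OHETB6 replicate 1, and without OISOB6 replicate 5 it was 0.00601. The log2 fold change stayed between -2.12 and -1.82 over these 9 exclusions. It was -1.88 in the libraries whose labels agree and -2.11 in those whose labels conflict, and -0.44 with columns matched by description.

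**Figure D1:**
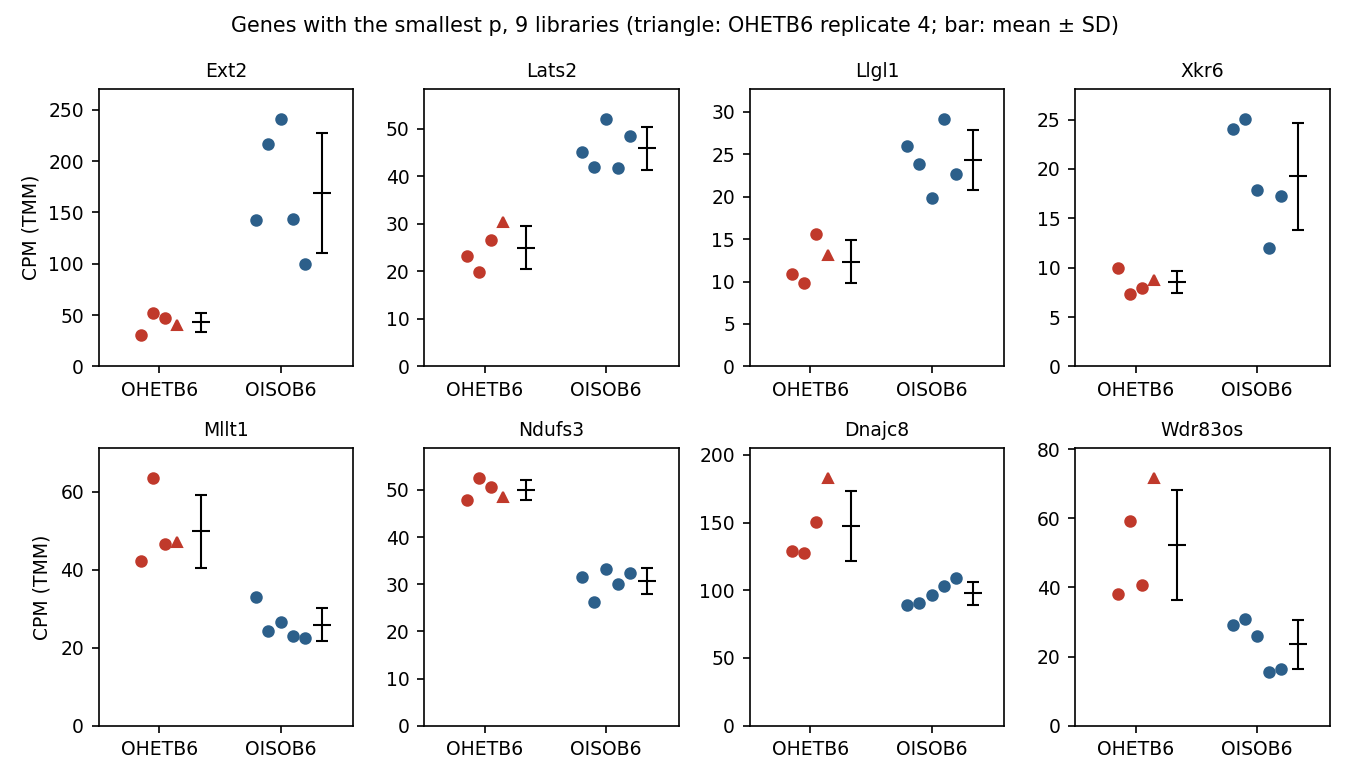
CPM of 8 leading genes in each library of OHETB6 (red, n = 4) and OISOB6 (blue, n = 5), with the mean ± SD beside the points and a triangle for OHETB6 replicate 4. Ext2, Lats2, Llgl1 and Xkr6 are lower and Mllt1, Ndufs3, Dnajc8 and Wdr83os higher in every OHETB6 library, and of these only Ext2 passed the adjusted edgeR test, while DESeq2 called all 8.

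The 250 bases before the annotated start of Ext2 are shown because it is the gene that passed the edgeR test. They lie at chr2:93822569-93822818 on the minus strand (RefSeq, GRCm38.p6), and capitals mark an E-box, CACGTG.
Ext2: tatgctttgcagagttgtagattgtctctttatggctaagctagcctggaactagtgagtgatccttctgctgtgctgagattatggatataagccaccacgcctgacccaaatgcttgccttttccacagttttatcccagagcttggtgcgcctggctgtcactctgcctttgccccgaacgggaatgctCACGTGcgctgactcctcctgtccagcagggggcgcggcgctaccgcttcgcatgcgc
An E-box was present in 6.02% of the 32851 RefSeq promoter windows of that length. The CCAAT box (CCAAT or ATTGG) and the GC box (GGGCGG or CCGCCC), searched on both strands like the palindromic E-box, had 0 matches in this window, against 33.8% and 32.7% of all windows. These matches describe the letters only.

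Ext2 varied widely over the other groups, whose mice were all male. The 3 libraries of unjoined B6 mice aged 22 months (OB6CNT) stood between 55.4 and 150 CPM, and the 3 of unjoined B6 mice aged 8 to 12 weeks (YB6CNT) between 62.0 and 107 CPM. The 2 libraries of young B6 mice with a young partner (YISOB6) were at 815 and 51.4 CPM, and the 4 of young unjoined BoyJ mice (YBJCNT) ranged from 59.1 to 376 CPM. The 2 libraries of old B6 cells recovered from young marrow (OHETB6X) were at 48.98 and 77.9 CPM, and both have conflicting labels. The old isochronic BoyJ library (OISOBJ, 21 months) stood at 67.5 CPM, below every OISOB6 library. In young BoyJ cells Ext2 was at 120 and 330 CPM with an old partner (YHETBJ) and at 81.4 and 61.7 CPM with a young one (YISOBJ). The unjoined old BoyJ library (OBJCNT, 21 months) stood at 66.4 CPM. OHETB6 replicates 1, 3 and 4 were the 3 lowest of all 29 libraries. Of the unjoined old B6 libraries, replicates 1 and 2, at 77.8 and 55.4 CPM, lay above every OHETB6 and below every OISOB6 library. Replicate 3, at 150 CPM, lay within the OISOB6 range.

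**Figure D2:**
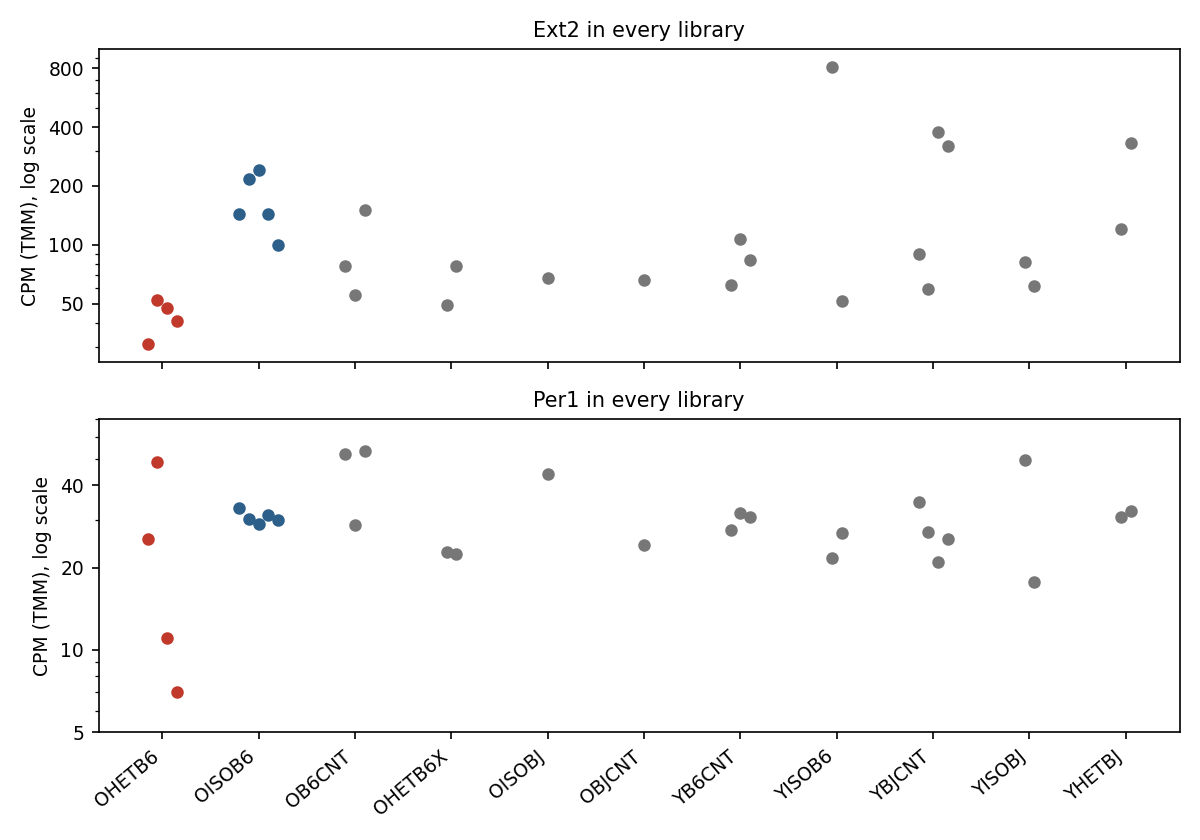
CPM (log scale) of Ext2 and of the clock gene Per1 in each of the 29 libraries matched by title, by group; each point is a library. Ext2 is at 31.0 to 52.3 CPM in OHETB6 and 99.9 to 241 in OISOB6, while Per1 runs from 7.00 to 48.8 CPM in OHETB6 and from 29.0 to 33.1 in OISOB6.

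Other genes of heparan sulfate assembly were read beside Ext2, in a list drawn up after its value had been seen. Of 28 genes, 27 were in the table and 24 were tested: 8 were positive, 16 negative, and none but Ext2 passed with edgeR or DESeq2. The list's median log2 fold change was -0.09, against 0.03 over all genes tested. Ext1, the partner of Ext2 in the polymerase, stood at 11.3 to 26.1 CPM in OHETB6 and 14.2 to 23.4 in OISOB6, so that the groups overlapped (log2 fold change -0.16). Hs3st1, a sulfotransferase that finishes the chain, had a log2 fold change of -1.36 with overlapping libraries.

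Lats2, a kinase of the Hippo pathway that restrains growth through YAP and TAZ, had a level of 23.2, 19.8, 26.5 and 30.4 CPM in OHETB6 and 45.1, 41.9, 52.1, 41.7 and 48.4 CPM in OISOB6. The groups did not overlap, and the log2 fold change was -0.88 (SE 0.20; adjusted p = 0.867, edgeR quasi-likelihood test). Without OHETB6 replicate 4 it was -0.99 (edgeR adjusted p = 0.661). Llgl1, a scaffold of the basolateral polarity complex, stood at 9.80 to 15.5 CPM in OHETB6 and 19.8 to 29.2 in OISOB6 (log2 fold change -0.98). Xkr6, a membrane protein of the XK family, stood at 7.37 to 9.98 against 12.0 to 25.1 CPM (log2 fold change -1.18), again without overlap. Gigyf1, an adaptor that binds the signalling protein Grb10, stood at 10.5, 8.31, 9.12 and 15.7 CPM against 15.9 to 25.4 CPM, so that replicate 4 was the heterochronic library nearest to the other group. None of these 4 passed the adjusted edgeR test. DESeq2 called Lats2, Llgl1 and Xkr6 in both sets of libraries and Gigyf1 without replicate 4.

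A further 4 leading genes with lower heterochronic levels were weakly expressed or hard to assign. Dlk1, an imprinted relative of the Notch ligands, ranged from 2.29 to 5.88 CPM in OHETB6 and from 4.22 to 37.8 CPM in OISOB6 (log2 fold change -2.12), and the groups overlapped. The homeobox gene Prox2 lay at 2.07 to 3.53 against 4.62 to 16.4 CPM. Gstm6, a glutathione transferase, was at 0 to 0.729 CPM in OHETB6 and 2.88 to 6.92 in OISOB6, and Xlr3b at 1.03 to 4.19 against 6.37 to 22.3 CPM. Both of the latter have near-identical copies, between which the estimated counts can be split, so their levels are uncertain.

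Ugt1a6b and Spaca9 had 0 counts in all 4 OHETB6 libraries and some in each OISOB6 library. Spaca9, named for the sperm acrosome, was at 0.437 to 1.59 CPM in OISOB6. Its mean there is at least 26.0-fold above the limit that 3 counts over the OHETB6 group allow, 0.0357 CPM. Ugt1a6b, a glucuronosyltransferase, was at 0.849 to 5.23 CPM in OISOB6. Its mean is at least 69.97-fold above that limit, but the Ugt1a genes share exons and its counts are uncertain. The edgeR adjusted p values were 0.327 for Spaca9 and 0.241 for Ugt1a6b. Unjoined old B6 libraries (OB6CNT) held 0 to 0.352 CPM of Ugt1a6b and 0.0807 to 0.608 CPM of Spaca9. Unjoined young ones (YB6CNT) held 2.12 to 7.37 and 0.182 to 1.05 CPM. Both genes were named for a small p without overlap and passed the count filter through OISOB6 alone. The gap between the groups follows in part from that choice.

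Of the genes with higher heterochronic levels, Mllt1 had the smallest p. It encodes ENL, a reader of acetylated histones in complexes that promote transcript elongation. It stood at 42.3, 63.5, 46.5 and 47.1 CPM in OHETB6 and 33.0, 24.2, 26.6, 23.1 and 22.5 CPM in OISOB6. The groups did not overlap, and the log2 fold change was 0.94 (SE 0.20; adjusted p = 0.867, edgeR quasi-likelihood test). Ndufs3, a core subunit of respiratory complex I, was at 47.9, 52.5, 50.6 and 48.4 CPM against 31.5, 26.1, 33.2, 30.0 and 32.4 CPM. Its libraries were close together within each group and did not overlap (log2 fold change 0.70). Without OHETB6 replicate 4 the values were 0.97 for Mllt1 and 0.71 for Ndufs3.

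Dnajc8, a J-domain protein of the spliceosome, stood at 127 to 183 CPM in OHETB6 and 89.2 to 109 in OISOB6 (log2 fold change 0.59). Fbl, the rRNA methyltransferase fibrillarin, stood at 66.0 to 101 against 47.98 to 62.5 CPM (0.62), and Bcl2l12, a BCL2-related protein, at 6.20 to 20.7 against 2.68 to 4.84 CPM (1.68). In these 3 genes the groups did not overlap and replicate 4 was the highest library. Wdr83os stood at 38.2 to 71.7 against 15.6 to 30.7 CPM, but it overlaps Wdr83 and its counts are uncertain without strand information. Kmt5a, which adds the first methyl group to lysine of histone H4, and Cdca2, which brings a phosphatase to mitotic chromosomes, were higher in 3 of the 4 heterochronic libraries. Replicate 3 was the exception, at 81.3 CPM for Kmt5a (OISOB6 70.02 to 85.5) and 49.2 CPM for Cdca2 (OISOB6 41.6 to 51.5).

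Over all genes, the libraries of the groups did not overlap with OHETB6 higher in 121 genes (0.862%) and with OHETB6 lower in 129 (0.919%). Each of these orders is 1 of the 126 ways to split the 9 libraries, so both shares lie near that given by chance. Lack of overlap in a gene named for its small p is therefore no added support. Unadjusted p values under 0.05 were found for 475 genes higher (3.38%) and 288 lower (2.05%). Without OHETB6 replicate 4, 14331 genes were tested and none passed with edgeR (0% higher, 0% lower). There, 907 genes had an unadjusted p under 0.05, 3.53% of genes higher and 2.8% lower, where 717 would by chance. DESeq2 called 31 genes in the 9 libraries and 55 without replicate 4, of which 17 were shared, and limma-voom with quality weights called 0 in both. Ext2, Lats2, Mllt1, Ndufs3, Llgl1 and Xkr6 were among the DESeq2 calls in both sets.

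Leaving out OHETB6 replicate 4 brought other genes to the top. H2-DMa, which loads peptides onto MHC class II, stood at 64.2, 91.2 and 64.8 CPM in OHETB6 replicates 1 to 3, at 29.6 CPM in replicate 4, and at 23.9 to 49.98 CPM in OISOB6 (log2 fold change 0.84 with and 1.07 without replicate 4). The ETS-family repressor Etv3 stood at 31.3, 18.7 and 28.1 CPM in replicates 1 to 3 but at 60.9 CPM in replicate 4, within the OISOB6 range of 47.5 to 65.0. The thioesterase-family gene Them7 was at 19.8, 20.0 and 9.35 CPM and 2.82 CPM in replicate 4, against 3.75 to 7.00 CPM. Olfm5, Rnf17 and Serpinb10 shared this order: replicates 1 to 3 lay above every OISOB6 library, at 4.02 to 15.2, 5.06 to 20.7 and 10.0 to 11.8 CPM, and replicate 4 stood at 1.33, 0.266 and 1.79 CPM. Pced1b and Reep1 had replicates 1 to 3 below every OISOB6 library, and Spata6 overlapped at 28.7 to 135 against 18.6 to 31.5 CPM. Without replicate 4, the smallest edgeR adjusted p among these 9 genes was 0.661. DESeq2 called all 9 there, with adjusted p from 0.00172 for Etv3 and Pced1b to 0.0244 for Spata6. All 9 were named for a small p without replicate 4. That replicates 1 to 3 stood apart from OISOB6, and replicate 4 from them, therefore follows in part from that choice and is no added support.

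The sorted cells carried the transcripts of stem cells in all libraries. All 28 genes of the stem cell identity list were detected in each of the 9 libraries, among them the transcription factor gene Hlf at 611 to 1116 CPM in OHETB6 and 831 to 1041 CPM in OISOB6. Kit, the receptor for stem cell factor, stood at 700, 820, 849 and 843 CPM in OHETB6 and 941, 934, 966, 896 and 900 CPM in OISOB6. The heterochronic libraries all lay below the isochronic ones, and the log2 fold change was -0.21 (SE 0.08) with an edgeR adjusted p of 0.867. Of the list, 13 genes were positive and 15 negative, with a median log2 fold change of -0.03. Slamf1, a surface marker of the most primitive cells, had a log2 fold change of -0.14, and Ptprc, the pan-leukocyte antigen CD45, of 0.13. Flt3 and Cd34, which are low in the most primitive stem cells and higher in progenitors, were detected in every library, Flt3 at 21.0 to 30.8 against 11.8 to 26.6 CPM, and Cd34 at 73.8 to 121 against 56.5 to 124 CPM.

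Among genes known to be higher in aged than in young stem cells, no member passed with edgeR or DESeq2. Of 30 genes, 20 were positive and 10 negative (66.7% positive, against 54.3% of all genes tested), and the median log2 fold change was 0.13. Without OHETB6 replicate 4, 25 were positive and 5 negative, against 51.6% of all genes positive, and the median was 0.15. Clca3a1 stood at 342 to 787 CPM against 347 to 402 CPM (log2 fold change 0.45), and Selp, the platelet and endothelial adhesion receptor P-selectin, at 193 to 349 against 175 to 247 CPM (0.30). Vwf, the von Willebrand factor, had a log2 fold change of 0.01 (SE 0.15), and Osmr, the oncostatin M receptor, of 0.36 (SE 0.30). The level of this list differed widely among heterochronic libraries. Summed over its genes it was 3207, 6996, 5903 and 4296 CPM in OHETB6 replicates 1 to 4 and 3896 to 4922 CPM in OISOB6, so that replicates 2 and 3 lay above and replicate 1 below every isochronic library. Among genes known to be lower in aged stem cells, 6 of 10 tested were positive (median 0.06). Without OHETB6 replicate 4, 5 of 11 were (median -0.03).

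The lists of lineage and immune genes in this paragraph gave no calls with edgeR, and DESeq2 called 1 member, H2-DMa, without OHETB6 replicate 4. Among 22 megakaryocyte and platelet genes tested, 16 were positive, with a median of 0.15. Of 16 lymphoid priming genes 11 were positive (median 0.08), led by Cd27, a receptor of the TNF receptor family, at 263 to 424 CPM against 218 to 294 CPM (log2 fold change 0.48). Myeloid priming genes split 8 to 8. Of 15 genes of MHC and antigen presentation 8 were positive, and Psmb9, a subunit of the immunoproteasome, stood at 56.0 to 79.7 CPM above 31.8 to 55.7 CPM with no overlap (log2 fold change 0.52). Of 35 interferon response genes 13 were positive and 22 negative (median -0.07), with Ifngr1, a chain of the interferon gamma receptor, at 117 to 177 against 97.3 to 127 CPM.

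Genes of growth and division were mostly positive without any call by edgeR or DESeq2. Of 25 mitosis genes 24 were positive, with a median log2 fold change of 0.25 (0.19, with 21 of 25 positive, without OHETB6 replicate 4). Ube2c, a ubiquitin-conjugating enzyme of mitotic exit, stood at 135, 130, 64.7 and 179 CPM in OHETB6 and 72.8 to 82.4 CPM in OISOB6, with replicate 3 below every isochronic library (log2 fold change 0.71). The 64 histone genes tested had 56 positive members and a median of 0.35, or 0.26 without replicate 4. Many histone genes are near-identical and their counts can be split. Hist1h2bl was at 122 to 224 CPM against 81.5 to 114 CPM, with no overlap (0.62). Of 26 DNA replication genes 20 were positive (median 0.15), but 12 were without replicate 4 (median -0.04).

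These levels differed between libraries of the same group. The summed mitosis list stood at 5722, 4384, 2792 and 5214 CPM in OHETB6 replicates 1 to 4 and at 3381, 3684, 3824, 5229 and 3571 CPM in OISOB6, so that the groups overlapped. OHETB6 replicate 1, highest in the mitosis list, was lowest in the list of aged stem cell genes, and OISOB6 replicate 4, highest of its group in mitosis genes, was lowest of its group there. The median of the mitosis list was -0.02 in the libraries whose labels agree and 0.52 in those whose labels conflict. It was -0.06 with columns matched by description, and it changed sign in 2 of 19 other settings. The histone median stayed positive in all 19, from 0.08 to 0.51. The DNA replication median changed sign in 2, without OHETB6 replicate 1 and without OHETB6 replicate 4.

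Of 89 nuclear genes of oxidative phosphorylation, 72 were positive (80.9%) and the median was 0.19. Besides Ndufs3, Uqcrq, a subunit of complex III, stood at 61.5, 23.1, 39.9 and 76.0 CPM in OHETB6 and 23.2 to 30.4 CPM in OISOB6, with replicate 2 at the lower edge of the isochronic range (log2 fold change 0.93). Of 83 cytoplasmic ribosomal protein genes 74 were positive, by a median of 0.10. Rps21 was at 432 to 585 CPM against 392.5 to 431 CPM, with no overlap. Of 13 genes of the mitochondrial genome 12 were positive (median 0.10), with mt-Nd2 at 1156 to 1681 against 955 to 1292 CPM. None of these genes passed the adjusted test with edgeR, while DESeq2 called Ndufs3. The median over all genes was 0.03.

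**Figure D3:**
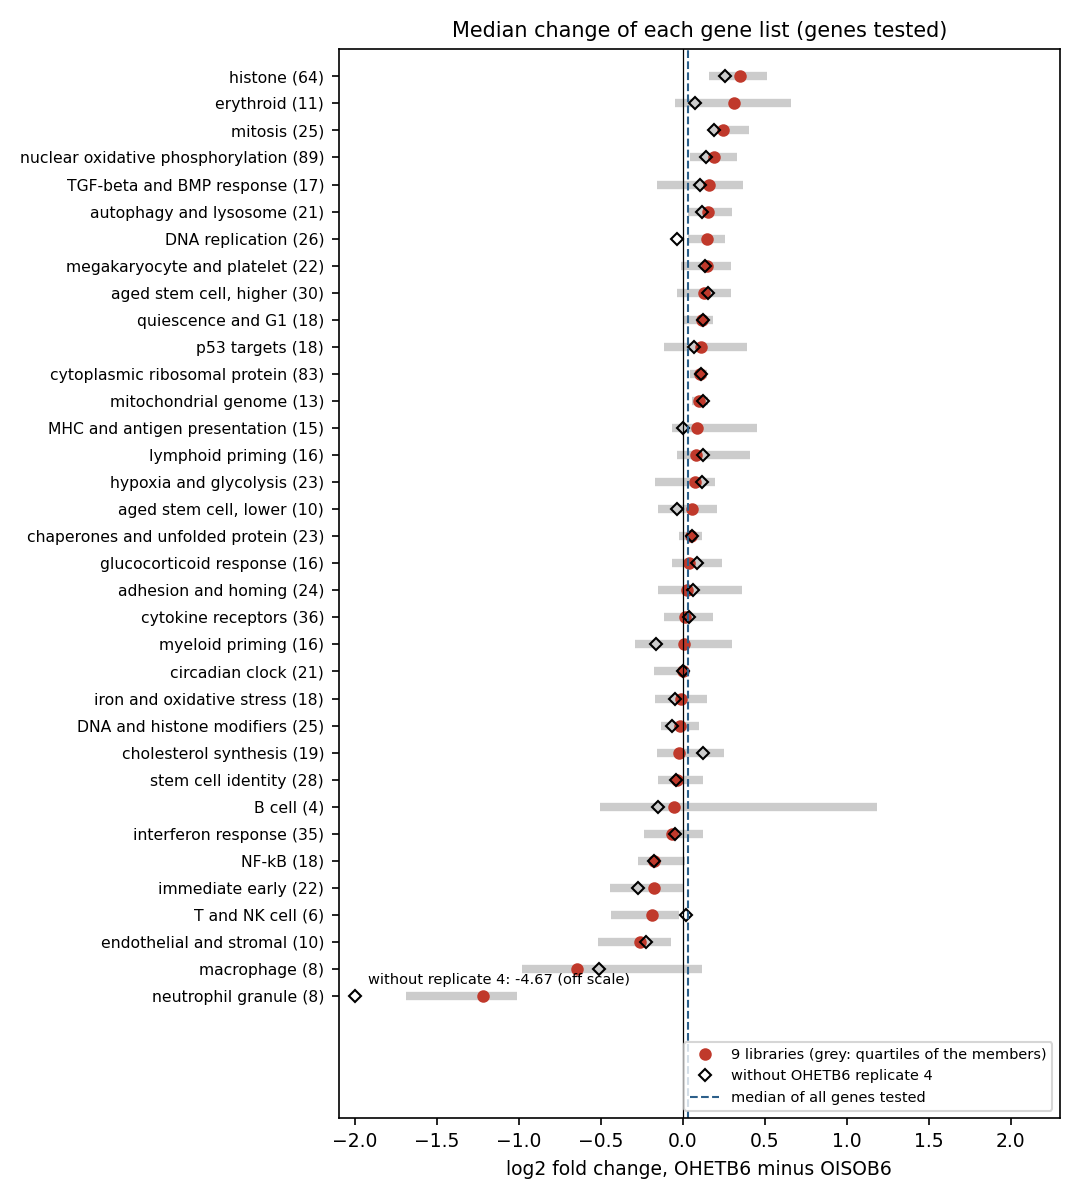
Median log2 fold change (OHETB6 minus OISOB6) of 35 gene lists in the 9 libraries (red points, with grey bars for the quartiles of the members) and without OHETB6 replicate 4 (open diamonds), with the number of genes tested in brackets and the median of all genes as a dashed line. Histone genes lie highest at 0.35 and neutrophil granule genes lowest at -1.22, and the latter go to -4.67 without replicate 4.

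Immediate early genes, which respond within minutes to stimulation and to handling of cells, were negative in 16 of 22 cases (median -0.18). Nr4a2, an orphan nuclear receptor, stood at 1.26 to 8.25 CPM in OHETB6 and 7.11 to 42.6 in OISOB6 (log2 fold change -1.76), and Ier5 at 10.8 to 22.1 against 17.2 to 40.98 CPM (-0.92). Summed over the list, OISOB6 replicates 1 and 3 stood at 2045 and 1742 CPM, and the other 3 isochronic libraries at 675 to 818 CPM. The 4 heterochronic libraries stood at 686 to 1192 CPM, below those 2. Without OISOB6 replicate 1 the median was 0.20. The part of handling in these values was not tested.

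In the circadian clock list 11 of 21 genes were positive and 10 negative, with a median of 0.00. Cry1, a repressor of the clock, stood at 22.1, 25.2, 31.3 and 20.3 CPM in OHETB6 above 15.98 to 18.2 CPM in OISOB6 (log2 fold change 0.50). Per1, another repressor, which also responds to glucocorticoids, was at 25.4, 48.8, 11.1 and 7.00 CPM in OHETB6 but at 29.0 to 33.1 CPM in all 5 OISOB6 libraries. Its heterochronic libraries lay on both sides of a narrow isochronic range, and the log2 fold change was -0.42 (SE 0.43). The time of day at which mice were killed is not among the labels used here. Pdk4, a glucocorticoid-responsive kinase that restrains pyruvate oxidation, stood at 0.266 to 5.19 against 2.71 to 19.2 CPM (-2.22). The glucocorticoid response list that holds it did not share this direction. Of its 16 genes tested, 11 were positive and 5 negative, with a median of 0.04, and none passed with edgeR. Zbtb16 and Ddit4 of that list had log2 fold changes of 0.53 and 0.61.

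Markers of mature blood cells differed widely between libraries of the same group. The neutrophil granule list summed to 24.8, 3.21, 6.43 and 435 CPM in OHETB6 replicates 1 to 4 and to 537, 28.5, 59.9, 27.7 and 651 CPM in OISOB6 replicates 1 to 5. OHETB6 replicate 4 and OISOB6 replicates 1 and 5 were high together. Ltf, the iron-binding lactoferrin of granules, was at 0, 0.0784 and 0.0456 CPM in OHETB6 replicates 1 to 3, 23.6 CPM in replicate 4, and 31.0, 2.31, 0.264, 2.87 and 34.7 CPM in OISOB6. Its log2 fold change was -1.26 with and -8.44 without replicate 4. All 8 granule genes tested were negative. None passed with edgeR, and DESeq2 called Ltf, Ngp and Camp without replicate 4. In bulk RNA, fewer cells of a type and less RNA per cell cannot be told apart, and the part of such cells in other results was not tested.

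Of the defining markers of other lineages, Cd79a of B cells was at 0 in 8 of the 9 libraries and at 0.392 CPM in OHETB6 replicate 2. C1qa of macrophages stayed below 1 CPM and Cdh5 of endothelium below 0.5 CPM in all 9. Other members of these lists were detected in all 9 libraries. Cd79b of the B cell list stood at 9.53 to 30.4 CPM and Klrb1c of the T and NK cell list at 21.8 to 69.1 CPM. Cd68 of the macrophage list stood at 1.98 to 10.0 CPM and Col1a2 of the stromal list at 2.25 to 30.6 CPM. The summed B cell list ranged from 14.1 to 73.4 CPM in OHETB6 and 15.3 to 23.7 in OISOB6. The high value was OHETB6 replicate 3, where Ighm reached 43.95 CPM against 0 to 2.29 CPM in the other 8 libraries. The macrophage list summed to 19.7 to 32.9 against 24.8 to 52.7 CPM, the T and NK cell list to 30.7 to 77.5 against 45.04 to 71.6 CPM, and the endothelial and stromal list to 146 to 202 against 172 to 217 CPM. Within these lists Axl, a receptor kinase, was at 5.10 to 10.4 CPM below 11.8 to 27.9 CPM with no overlap (log2 fold change -1.08), and the sialomucin Emcn at 24.0 to 41.03 against 39.3 to 56.2 CPM (-0.54). Erythroid genes summed to 828 to 896 against 726 to 1115 CPM. For the lists of this paragraph no member passed the adjusted test with edgeR or DESeq2.

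**Figure D4:**
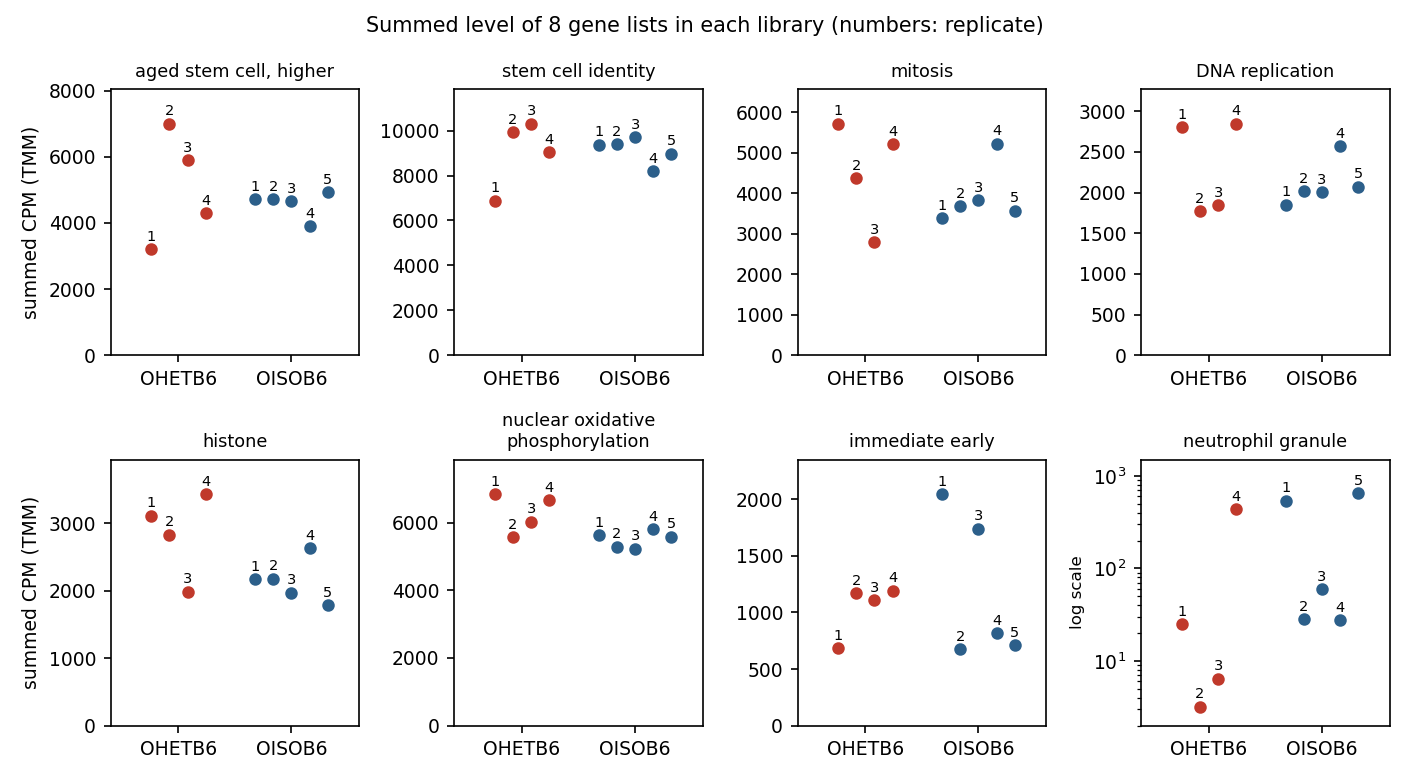
Summed CPM of 8 gene lists in each library of OHETB6 (red) and OISOB6 (blue), with replicate numbers beside the points and a log axis for the neutrophil granule list. The list of genes higher in aged stem cells spans 3207 to 6996 CPM in OHETB6 and 3896 to 4922 in OISOB6, and the neutrophil granule list is high in OHETB6 replicate 4 and OISOB6 replicates 1 and 5.

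The groups also differed in how alike their libraries were. Over the genes tested, the Pearson r of log2(CPM + 1) between pairs of OHETB6 libraries was 0.909 to 0.944 (6 pairs), against 0.960 to 0.975 between pairs of OISOB6 libraries (10 pairs), 0.972 to 0.983 in unjoined old and 0.969 to 0.976 in unjoined young B6 mice. No OHETB6 pair was as alike as the least alike OISOB6 pair. The mean r was 0.929 and 0.968, and of the 126 ways to split the 9 libraries the labelled one gave the largest difference (2-sided exact permutation test, p = 0.00794, the smallest it can give; adjusted p = 0.0397 over 5 library measures). Without OHETB6 replicate 4 the mean r was 0.939 and the exact permutation p was 0.0179, the smallest that 56 splits allow. Genes are not independent replicates, so r describes each pair, and the test was chosen after the data had been seen. Replicate 4 was known beforehand to be unlike the rest. Permutation tests over all 9 libraries, here and below, therefore partly restate what was known.

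**Figure D5:**
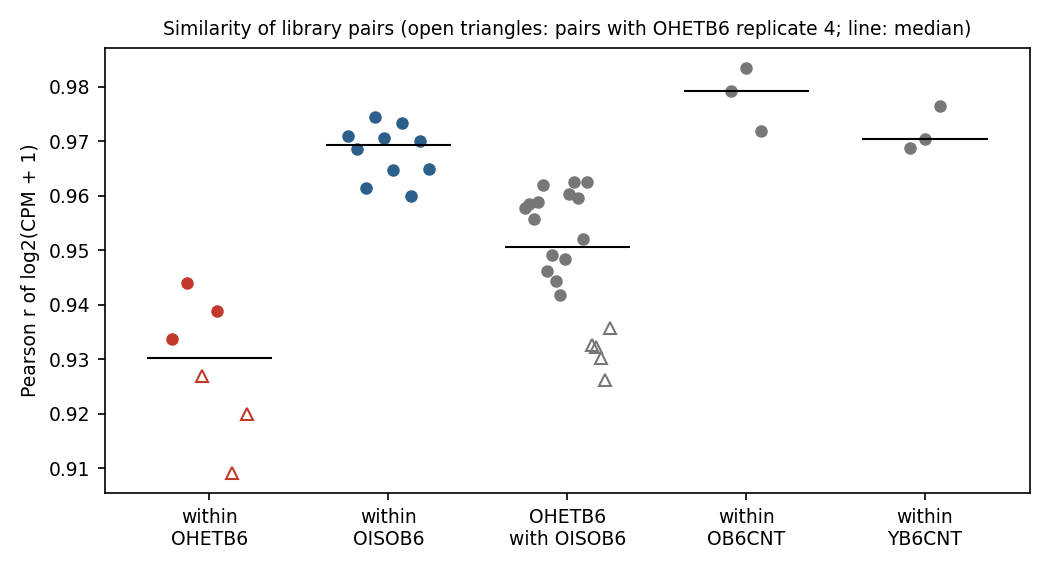
Pearson r of log2(CPM + 1) over the tested genes for each pair of libraries, within OHETB6, within OISOB6, between them and within the unjoined old (OB6CNT) and young (YB6CNT) B6 groups, with open triangles for pairs with OHETB6 replicate 4 and a line at the median. All 6 OHETB6 pairs, at 0.909 to 0.944, lie below all 10 OISOB6 pairs, at 0.960 to 0.975.

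Gene by gene, among 9267 genes with a mean of at least 10 CPM, the SD of log2(CPM + 1) was larger in OHETB6 for 7388 (79.7%), with medians of 0.393 and 0.234. It was larger for 68.5% without replicate 4, for 61.9% in the 5 libraries whose labels agree and for 69.5% in the 4 whose labels conflict. The summed level of 27 of the 35 lists had the larger SD in OHETB6, and of 23 without replicate 4. Aged stem cell, circadian clock and cytokine receptor genes were among the former, and immediate early, interferon response and MHC genes among the 8 that varied more in OISOB6. Each library was also set against the median of the 3 unjoined old libraries: 66, 62, 23 and 166 of the 9267 genes lay at least 4-fold away in OHETB6 replicates 1 to 4, and 6 to 47 in OISOB6 (2-sided exact permutation test, p = 0.0476; adjusted p = 0.0794). The number of genes at 1 CPM or more was 12348 to 12821 in OHETB6 and 12702 to 13022 in OISOB6 (exact permutation p = 0.0476; adjusted p = 0.0794), and total counts did not separate the groups (exact permutation p = 0.905). The number of cells sorted per library is not in the labels, and its part in this spread was not tested.

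The design also allows the partner effect in old B6 cells to be set against that in young BoyJ cells, heterochronic minus isochronic in each. The young mice were 8 to 12 weeks old, joined to an old partner (YHETBJ) or a young one (YISOBJ). Of 16841 genes none passed for a difference of the effects with edgeR (0% higher, 0% lower), with 979 at an unadjusted p under 0.05, 0 calls by limma-voom and 18 by DESeq2. Age and strain are confounded in this test, and each young group has 2 libraries, of which YISOBJ replicate 1 has conflicting labels. The smallest p among genes with established symbols belonged to the histone gene Hist1h2bf (log2 difference 2.81, SE 0.62; edgeR adjusted p = 0.725). Its levels were 10.6, 10.8, 14.1 and 39.01 CPM in OHETB6 and 7.34 to 11.6 in OISOB6. In the young cells they were 5.13 to 8.94 CPM in YHETBJ and 21.6 to 24.9 CPM in YISOBJ. Sec16b, Sumo3, Ltbp4 and Chst2 followed, with log2 differences of 5.35, 1.37, -4.32 and -2.69. Their log2 fold changes in the old cells were -0.05 (SE 0.71), 0.26 (SE 0.19), -0.82 (SE 0.64) and -0.66 (SE 0.43). Sec16b was at only 0.0733 to 0.116 CPM in YHETBJ and Ltbp4 at only 0.303 to 0.571 CPM in YISOBJ, so their differences rest on low counts.

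The authors' deposited table for isochronic over heterochronic old cells lists 90 of 17329 genes at an adjusted p under 0.05. Of these, 49 were not tested here after the filter on low counts, and the authors' called genes had a median base mean of 14.0 against 243 for all genes in that table. For the 41 that were tested, 40 had the same direction here once the orientation of the table is turned. Which libraries entered that table is not stated in the sources used here, and libraries of this comparison may be among them. The shared direction is therefore not independent support. Wdr83os, Bcl2l12, Kmt5a, Uqcrq, Ugt1a6b and Spaca9 are among the authors' calls (adjusted p of 0.000616, 0.00588, 0.0233, 0.0444, 0.00570 and 0.0211 in the authors' deposited table). Ext2 is not, at 0.380 in the authors' deposited table with a log2 value of 0.78. Log2 values of that table can be far smaller in size than those here, as for Ugt1a6b at 0.656 there and -8.75 here. Their sizes are therefore not compared.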

How the data were processed

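The estimated counts of 17562 genes in 30 columns were used as deposited by the authors, who had already made them whole numbers. Salmon, DESeq2, FastQC, MultiQC and GRCm38 are named in the submitters' processing notes, without versions. Per the labels' protocols, low-input RNA libraries were sequenced. The title code matched 29 columns, and 1 column was not used. The authors' comparison table, with log2 fold changes, p-values, test scores and base mean signal, was read only where named.

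Tests used edgeR 4.0.16 under R 4.3.3 (quasi-likelihood test, robust, TMM, filterByExpr, Benjamini-Hochberg), with 7 residual degrees of freedom and no covariate. CPM use TMM factors over the 29 columns. DESeq2 1.42.0, limma-voom 3.58.1 and other settings were alternatives. Fits were tested on simulated data that gave each gene the same dispersion in both groups, so their behaviour under unequal spread was not tested. No libraries were repeats: the closest pair had a chi-square, divided by its degrees of freedom, of 27.8.

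The members and the 35 lists were chosen with earlier results of these data known. Named genes were those called or, to 8 per direction, of smallest p in each fit, up to 4 of smallest p per list, 9 markers, 5 of the difference between ages and 5 without overlap. Of the list genes, 8 symbols had no match in the table. GENCODE symbols matched 17547 genes.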

Additional observations from a re-analysis of the deposited data

Results flagged for a closer look

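In 246 sets of values, a gene or library measure in 1 of the groups, 10 had a highest or lowest library far from the others by a gap test (Dixon, 95% level), where about 12 would by chance. In OHETB6, replicate 4 was the low library for Serpinb10 at 1.79 CPM (others 10.0 to 11.8), for the death receptor gene Fas at 0 CPM (others 6.58 to 7.16) and for the endoplasmic reticulum gene Sdf2l1 at 0.647 CPM (others 8.86 to 11.4). Serpinb10, Fas and Sdf2l1 were named for a small p without replicate 4, which favours such a gap. The number expected by chance makes no allowance for that choice. Replicate 4 was the high library for the Polycomb gene Ring1 at 22.6 CPM (others 15.6 to 16.3). Replicate 2 was the high library for mt-Nd2 at 1681 CPM (others 1156 to 1226).

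In OISOB6, replicate 4 was the low library for Rnf17 at 1.94 CPM (others 3.11 to 3.39), for the lysosomal protease gene Ctsd at 88.3 CPM (others 126 to 132), for Osmr at 19.6 CPM (others 34.9 to 39.8) and for the sulfotransferase gene Chst2 at 11.9 CPM (others 31.9 to 43.9). Replicate 3 was the high library for Xlr3b at 22.3 CPM (others 6.37 to 8.26).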

How the results depend on the processing

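The count of genes called in the 9 libraries, 1 with edgeR, was 31 with DESeq2 (12 higher, 19 lower) and 0 with limma-voom, with all B6 libraries or all libraries in 1 fit, with columns matched by description, and with only the libraries whose labels agree or conflict. It was 1 with RLE size factors, with no filter and against a 1.2-fold minimum. Leaving out each library gave 0 to 1 calls, 1 only without OISOB6 replicate 5. Without OHETB6 replicate 4 the count, 0, was 55 with DESeq2, 1 with the libraries whose labels agree (Preb, named after its value was seen; the lone heterochronic library there is assumed to vary like the isochronic ones), and 0 to 1 when a further library was left out (Ext2, without OISOB6 replicate 5). The difference of the partner effects gave 18 calls with DESeq2 and 0 in the other settings run. Fewer samples enter the exclusions; the cause was not tested otherwise. Of the named genes, 53 of the 124 that could be fitted changed sign with columns matched by description, 19 of 131 with only the libraries whose labels agree, and 0 to 6 in the other settings. Of the 35 list medians, 19 changed sign with description matching, and 0 to 9 otherwise. No paired analysis was possible because the labels give the groups no shared replicate numbers or pairs. Depth limits genes of low counts: in OHETB6 as a group, 3 counts are 0.0357 CPM.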
